A study of Arabidopsis thaliana with 12 samples.

Results

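ILITHYIA (ILA, locus AT1G64790) was followed through the 1 array spot whose platform annotation names ILA and no other gene, 1 of the 3439 spots on the array and of the 692 annotated to a single gene. The spot was picked because it was lower in the tpt1 mutant than in wild type (WT) in these same samples, so the difference between the genotypes is described here and carries no test. Transcripts were measured in total RNA of 6 tpt1 and 6 WT samples of Arabidopsis thaliana, both genotypes of ecotype Wassilevskija. By its label the tpt1 mutant has lost most of the transport of triose phosphate across the chloroplast envelope, and WT is the unmutated ecotype; both groups carry the numbers 1 to 6. The sources used here give no tissue, age, growth conditions or kind of mutant allele. They do not state either if each sample was a plant of its own. Neighbouring numbers of a group (1 and 2, 3 and 4, 5 and 6) correlated at 0.63 as a random block, so the 6 samples of a group may be fewer than 6 independent replicates, as few as 3.

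ILA is the plant relative of yeast GCN1, a very large protein built almost wholly of HEAT repeats that binds translating ribosomes. In yeast, GCN1 works with GCN20 to hand uncharged tRNA to the kinase GCN2, which phosphorylates the initiation factor eIF2α and slows translation when amino acids run short. In Arabidopsis, ILA is needed for phosphorylation of eIF2α by GCN2 and for resistance to bacterial infection, and plants that lack it have defects in chloroplast development. Triose phosphate is the main product of photosynthesis that leaves the chloroplast in the light, and the translocator TPT exchanges it for phosphate.

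As deposited, on a linear intensity scale with a highest value of 100, the ILA spot was read above 0 in all 12 samples. It stood at 0.471, 0.462, 0.472, 0.426, 0.24 and 0.349 in tpt1 samples 1 to 6, against 0.567, 0.414, 0.804, 0.862, 0.442 and 0.475 in WT samples 1 to 6. The lowest reading was that of tpt1 5, and the highest were those of WT 3 and WT 4. The groups overlapped on this scale: WT 2 and WT 5 lay below the highest tpt1 samples, and only 2 of 6 tpt1 samples lay below every WT sample. The mean was 0.403 ± 0.0924 in tpt1 and 0.594 ± 0.193 in WT (SD, n = 6 each).

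The arrays themselves differed in overall level. Over the spots above 0, the median log2 value was -1.42 to -0.88 on the tpt1 arrays and -2.38 to -1.72 on the WT arrays, so a typical spot read 1.82-fold higher in tpt1. Between 385 and 476 spots were at 0 on a tpt1 array and between 490 and 603 on a WT array. The highest value was 100 on every WT array and 77.1 to 100 on the tpt1 arrays. How the authors scaled the arrays is not given, and whether the shift of the medians belongs to the plants or to the scaling was not tested. Every difference of ILA below is therefore given on the deposited scale and also relative to the rest of the array. In bulk RNA, less ILA transcript per cell and fewer cells that express it cannot be told apart.

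Set against its own array, the ILA spot was ordinary in tpt1 and bright in WT. It read 0.868, 0.86, 1.01, 0.91, 0.637 and 0.933 times the array median in tpt1 samples 1 to 6, against 1.88, 1.36, 3, 3.25, 2.31 and 2.39 times in WT samples 1 to 6. In tpt1 the spot thus lay near or below the middle of the spots above 0, and in WT above that middle in 6 of 6 samples. A rank among all spots of an array needs no scaling but counts the spots at 0, which were more numerous on WT arrays. By this rank ILA lay at percentile 50.5, 49.6, 57.5, 53.2, 42.2 and 53 in tpt1 samples 1 to 6. In WT samples 1 to 6 it lay at percentile 77.5, 68.2, 87.2, 88.4, 80.9 and 81.3. The ranks did not overlap, which held with tpt1 below WT at 5.02% of the 2849 spots with enough values to test, and ILA had a mean percentile of 51 ± 5.11 in tpt1 and 80.6 ± 7.31 in WT (SD, n = 6 each).

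Quantile normalization, which gives every array the same distribution of values, was used for the fit across spots. After it the log2 intensity of ILA was -1.78, -1.82, -1.54, -1.71, -2.16 and -1.67 in tpt1 samples 1 to 6, against -0.68, -1.10, -0.12, -0.02, -0.5 and -0.47 in WT samples 1 to 6. The means were -1.78 ± 0.21 in tpt1 and -0.48 ± 0.39 in WT (SD, n = 6 each), a log2 difference of -1.30 or a 2.46-fold lower level in tpt1. The highest tpt1 sample, number 3, stayed below the lowest WT sample, number 2. Such a gap, with every tpt1 value under every WT value, was seen at 4.11% of the same spots. Since the spot was chosen by this contrast, nothing is read from its place among them.

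**Figure D1:**
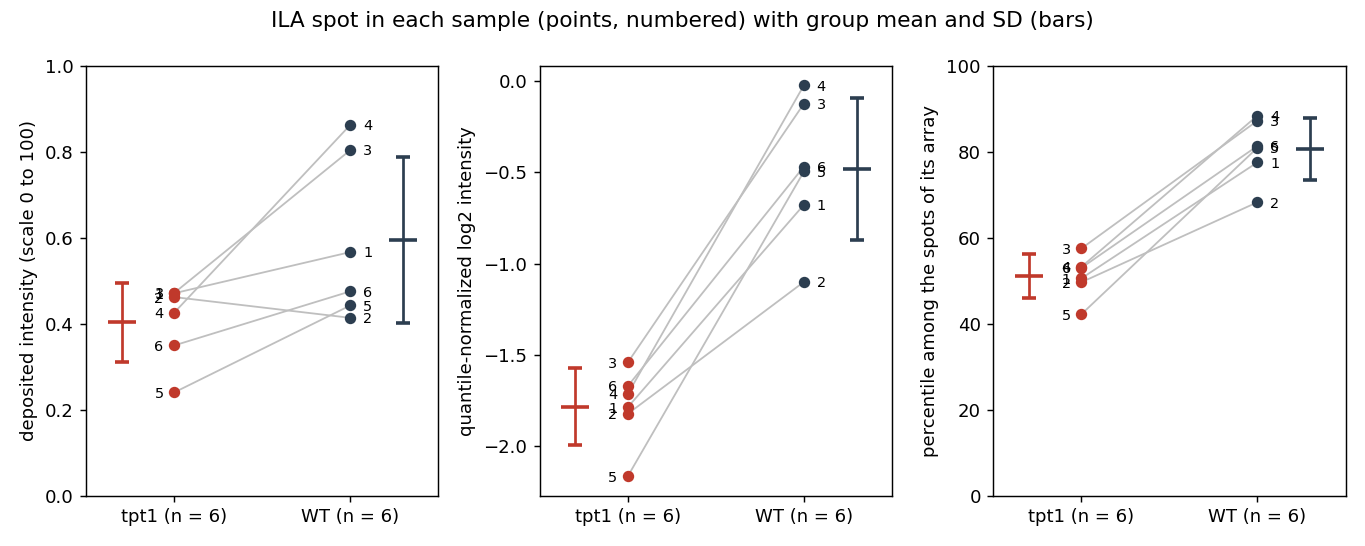
The ILA spot in 6 tpt1 and 6 WT samples: deposited intensity (left panel), quantile-normalized log2 intensity (middle panel) and percentile among all spots of its array (right panel). Points are samples with their numbers, grey lines join samples of the same number, and bars give the group mean and SD. The groups overlap in deposited intensity and not on the other 2 scales.

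The 2 parts of the difference can be laid side by side for each number. On the deposited scale ILA differed by a log2 value of -0.54 between tpt1 and WT, a 1.45-fold lower mean level, and it was lower in tpt1 in 5 of 6 pairs of the same number. The exception was pair 2, in which ILA was 0.16 higher in tpt1, and the pair with the greatest fall was pair 4 at -1.02. The array median was higher in tpt1 in each pair, by 0.80 to 0.97 on the log2 scale, and so went against ILA in the other 5 pairs. Relative to the array median, ILA was lower in tpt1 in 6 of 6 pairs, by log2 differences from -1.86 in pair 5 to -0.66 in pair 2. The groups did not overlap on that scale either, which held with tpt1 below WT at 8.99% of the tested spots. Their mean of -1.40 corresponds to 2.64-fold, of which 1.82-fold is the shift of the array medians and 1.45-fold the lower reading of the spot itself.

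**Figure D2:**
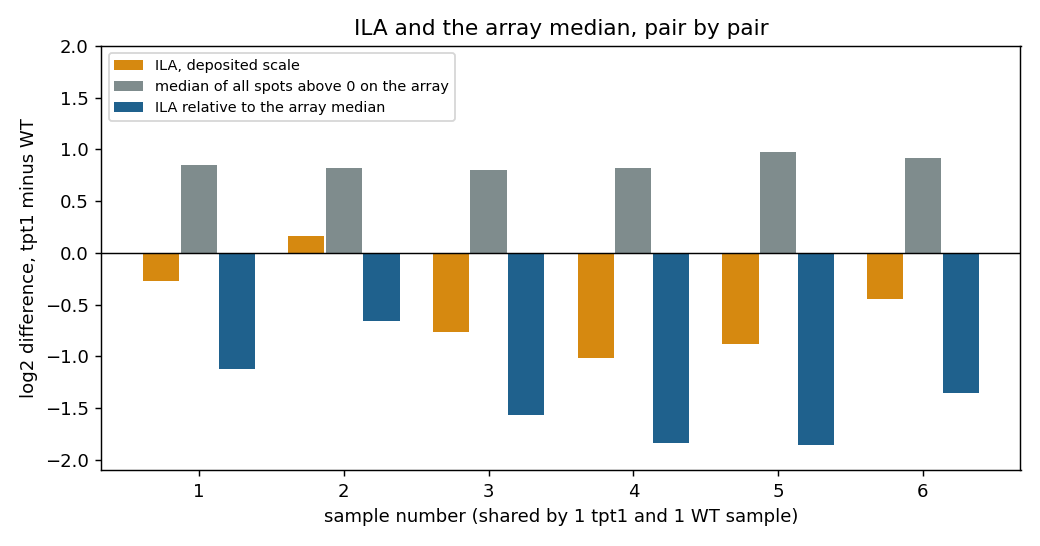
Log2 difference between the tpt1 and the WT sample of each number, for the ILA spot on the deposited scale, for the median of all spots above 0 on the array, and for ILA relative to that median. The array median is 0.80 to 0.97 higher in tpt1 throughout, while the deposited ILA reading is lower in tpt1 for all numbers other than 2.

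The size of the fall differed between sample numbers. In quantile-normalized values the log2 difference was -1.11 and -0.72 in pairs 1 and 2, -1.42 and -1.69 in pairs 3 and 4, and -1.67 and -1.20 in pairs 5 and 6. Averaged over neighbouring numbers, whose arrays had close medians, it was -0.91 for numbers 1 and 2, -1.55 for 3 and 4, and -1.43 for 5 and 6. On the deposited scale the same averages were -0.05, -0.89 and -0.66, so numbers 1 and 2 held almost no difference in the reading itself. In tpt1 the normalized means were -1.80 for numbers 1 and 2, -1.63 for 3 and 4, and -1.92 for 5 and 6. In WT they lay further apart, at -0.89 for numbers 1 and 2, -0.07 for 3 and 4, and -0.48 for 5 and 6. Neighbouring numbers were often near each other, with a gap of 0.04 between tpt1 1 and tpt1 2 and of 0.03 between WT 5 and WT 6. The gaps were wider between tpt1 5 and tpt1 6, at 0.49, and between WT 1 and WT 2, at 0.42.

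The ILA spot varied less within the groups than most tested spots. Its pooled SD within the groups was 0.31 on the log2 scale, against a median of 0.51 over the tested spots of every brightness. Of these spots, 19.5% had a smaller one, and spots of like brightness were not compared apart. In mean normalized level, 41.7% of the tested spots were dimmer than ILA in tpt1 and 79.7% were dimmer than ILA in WT. The median log2 difference of all 2849 tested spots was 0.08 after quantile normalization, and in the brightness class that holds ILA, the third of 4 classes of near equal size from the dimmest, it was 0.13. ILA was thus -1.38 from the median of the array in that scaling, close to the -1.40 found without normalization, for which the tested spots had a median of 0.86. On the deposited scale 88.1% of tested spots had a difference above 0, and ILA was among those below it.

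**Figure D3:**
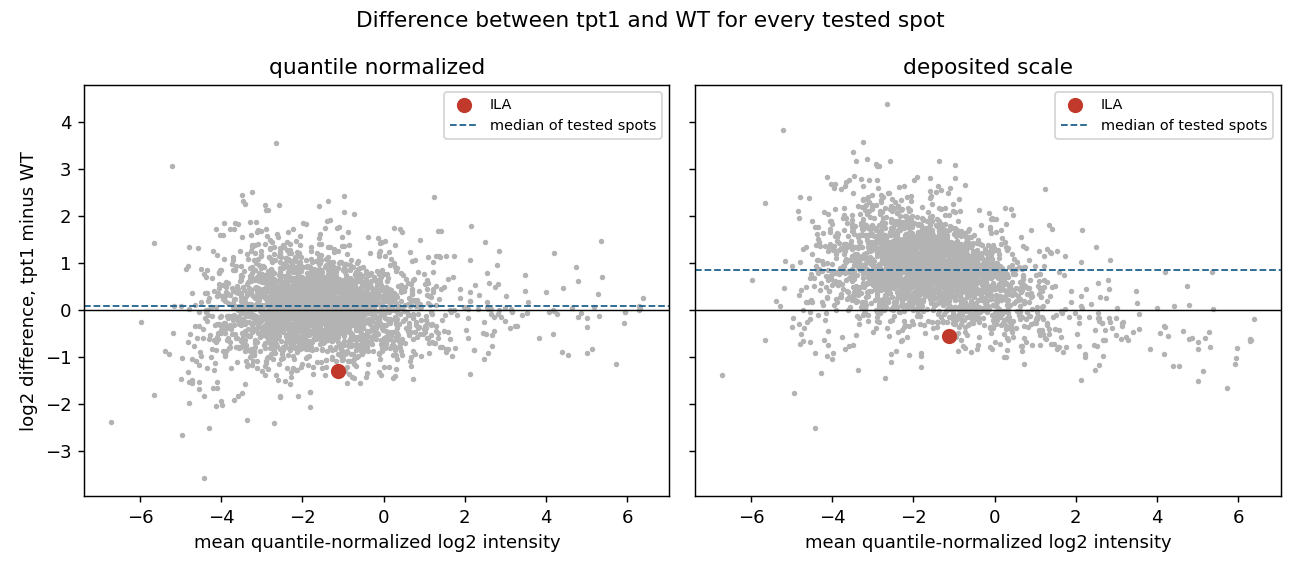
Log2 difference between tpt1 and WT for each of the 2849 tested spots (grey points) against mean quantile-normalized log2 intensity, after quantile normalization (left panel) and on the deposited scale (right panel). The dashed line is the median of the tested spots, 0.08 on the left and 0.86 on the right, and ILA is the large point at -1.30 and -0.54.

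In the fit across spots, limma called 364 of 2849 spots different between the genotypes, 12.8%, with 182 lower in tpt1, 6.39%. With the sample number as a block it called 906, and with neighbouring numbers as a random block 122. With neighbours averaged to 3 values a group it called 348 where each set of neighbouring numbers was a block. Without that block it called 0 of the averaged spots, and 382 had an unadjusted p under 0.05. The even split into higher and lower calls became 1323 higher and 73 lower on the deposited scale, and 133 higher and 356 lower with each array centred on its median. Among the 570 tested spots of a single gene 26 were lower in tpt1, 4.56%, and ILA was one of these by its choice. ILA was not called on the deposited scale, nor with neighbouring numbers averaged and no block. In the order of differences over those 570 spots ILA was in place 7 from the most negative, between AT5G19050 at -1.31 and AT2G04700, the gene of a ferredoxin-thioredoxin reductase subunit, at -1.27. Both neighbours in that order were more scattered than ILA. Their SDs were 0.62 (AT5G19050) and 0.76 (AT2G04700) over the tpt1 samples, against 0.21 for ILA. Over the WT samples they were 0.59 (AT5G19050) and 0.46 (AT2G04700), against 0.39 for ILA. Both were also dimmer, with WT means of -1.61 (AT5G19050) and -1.49 (AT2G04700), against -0.48 for ILA. By median centring and on the deposited scale ILA was in place 13 of the same spots. The choice for a fall already favours a place near the low end, so these places only describe the spot.

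Genes with a WT level close to that of ILA lay on both sides of 0. The 2 nearest dimmer genes in mean WT level, AT1G51550 and AT5G14910, had log2 differences of -0.12 (SE 0.19) and -0.08 (SE 0.32). Of the 2 nearest brighter ones, AGL26 had a difference of 0.45 (SE 0.13) and AT2G38070 one of -0.76 (SE 0.21). On the deposited scale these 4 genes were at 0.54 (AT1G51550), 0.59 (AT5G14910), 1.06 (AGL26) and -0.04 (AT2G38070), against -0.54 for ILA. ILA was therefore the lowest of the 5 on both scales, which its choice for a fall already favours.

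The rest of the pathway could hardly be read from this array. Of 136 genes in 7 lists drawn up around ILA, 1 had a spot of its own and 0 had enough values to test. The lists hold the GCN2 arm with its ribosome-bound partners (10 genes), eIF2 and its exchange factor eIF2B (17), the TOR kinase arm (6), cytosolic initiation, elongation and release factors (42), plastid translation factors (11), aminoacyl-tRNA synthetases (41) and immune response genes (9). The gene with its own spot was AT4G33760, an aminoacyl-tRNA synthetase gene. It was above 0 in 1 of 6 tpt1 samples, at 0.00431, and in 1 of 6 WT samples, at 0.000769. A further 6 list genes lay on 5 spots shared with other genes, which cannot be assigned to either. In the list of the GCN2 arm, with the kinase that acts with ILA and the GCN20-like ABC proteins, 0 of 10 genes matched a spot, so that whether they moved with ILA was not tested. Of 7 genes of green tissue looked up, 1 was found on a spot of its own. This was PRK, an enzyme gene of carbon fixation, at a normalized log2 level of -0.51 to 0.64 in tpt1 and 0.62 to 1.1 in WT.

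The genes whose values ran most like those of ILA were sought among the 477 other single-gene spots with a value above 0 in all 12 samples. Over the 12 normalized values the 5 highest Pearson correlations belonged to AT5G47890 (r = 0.92), AT5G14590 (r = 0.90), PSBY (r = 0.89), PRA1.B3 (r = 0.86) and AT3G14890 (r = 0.84), against a median r of -0.09. This measure follows the difference between the genotypes, and these genes had log2 differences of -0.81, -0.86, -1.08, -0.78 and -0.96 in the same order. On the deposited scale they were at -0.01 (AT5G47890), -0.25 (AT5G14590), -0.76 (PSBY), -0.18 (PRA1.B3) and -0.12 (AT3G14890), so the size of their fall depends on the scaling. By this measure 0 of the 5 were among the 5 nearest to ILA on the deposited scale and 3 were with median centring. PSBY is a small subunit of photosystem II, and with the group means subtracted its r with ILA was -0.12. AT5G47890, named as a subunit of mitochondrial complex I, kept an r of 0.65 after that subtraction, with 0.29 in the tpt1 samples alone and 0.72 in the WT samples alone.

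A second measure left the genotypes out by subtracting each group's mean from its 6 values. The 5 genes nearest to ILA were then Cpn60beta4 (r = 0.79), AT4G22370 (r = 0.77), AT4G26370 (r = 0.77), AT1G21660 (r = 0.75) and AT5G26850 (r = 0.70), against a median r of 0.04. Cpn60beta4 encodes a subunit of the plastid chaperonin, and it was also nearest to ILA by this measure on the deposited scale (r = 0.88). The other 4 were not among the 5 nearest there, at places 19 (AT4G22370), 37 (AT4G26370), 11 (AT1G21660) and 10 (AT5G26850). None of the 5 was among the first 5, and their own log2 differences between tpt1 and WT were 0.94 (SE 0.22), 0.02 (SE 0.14), 0.18 (SE 0.43), 0.54 (SE 0.35) and 0.84 (SE 0.24) in that order. Cpn60beta4 thus had a higher mean in tpt1, -1.60 ± 0.16 against -2.54 ± 0.41 in WT (SD, n = 6 each), the opposite side from ILA. In the tpt1 samples alone r with ILA was 0.28 for Cpn60beta4, 0.38 for AT4G22370, 0.15 for AT4G26370 and 0.03 for AT1G21660. In the WT samples alone it was higher for these 4 genes, at 0.91 (Cpn60beta4), 0.88 (AT4G22370), 0.94 (AT4G26370) and 0.93 (AT1G21660). That contrast was not tested, and the way the genes were chosen favours it. Deviations over both groups give more weight to WT, where ILA spread wider (SD 0.39 against 0.21 in tpt1). AT5G26850 was alike in both groups, at 0.68 in tpt1 and 0.71 in WT. These values come from 12 samples whose numbers pair them across the groups, and from 6 within a group, and are descriptions only.

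**Figure D4:**
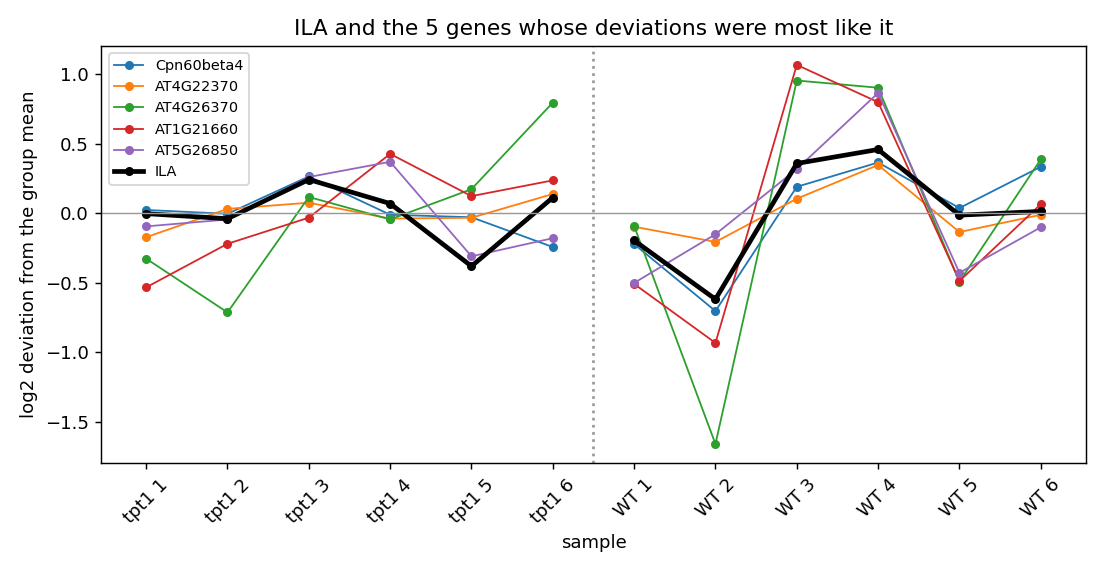
Deviation of each normalized log2 value from its group mean, for ILA (thick black line) and the 5 genes whose deviations correlated best with it, in 6 tpt1 and 6 WT samples. Lines only join the points of 1 gene; WT 3 and WT 4 are above and WT 2 is below the WT mean for all 6 genes.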

How the data were processed

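Total RNA of 6 tpt1 and 6 WT samples was measured on arrays, and the authors deposited 1 linear intensity per spot and sample. Background correction, scaling and spot design are not given in the sources used here, so scale, centring and the meaning of a 0 stay unknown. The number of arrays limits the precision, and so does the likeness of neighbouring numbers within a group (correlation 0.63 as a random block). The p-values set a difference against the spread between samples. That spread may be technical and is too small where neighbours repeat each other.

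Zeros were set as missing and values taken as log2. Sample medians lay more than 0.1 apart, so arrays were quantile normalized. Spots with at least 4 values above 0 in each group, 2849 of 3439, were fitted with limma 3.58.1 (statmod 1.5.0, R 4.3.3; eBayes with trend), with Benjamini-Hochberg adjustment over all of them and a threshold of 0.05. The fit was tried on simulated data with independent samples, without the likeness of neighbouring numbers. It found 49 of 100 spots changed by a log2 value of 1 and 88 of 100 changed by 2, with 6 false calls. Because the simulated samples were independent, this cannot show how the fit behaves where neighbours repeat each other. Figures were drawn with matplotlib 3.10.9.

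Of the spots, 692 had 1 gene, 870 several and 1877 none in the platform annotation; 690 of the 692 matched a locus in a TAIR10.1 table used for names only. Spot sequences are not shown. The member, the lists and the rules were chosen with earlier results of these data known. Genes named beside ILA were its neighbours in difference and in WT level, the 5 most alike by each correlation, and list genes.

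Samples of the same number deviated together from their group means (r = 0.47 to 0.61 over 2383 spots, every pair above 0.1), so the numbers pair the samples. The main fit left this pairing out. The fit with the sample number as a block used it but took neighbouring numbers as independent. The labels do not say what a number marks.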

Additional observations from a re-analysis of the deposited data

Results flagged for a closer look

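Of 36 groups of 6 values of the named genes, 1 held a sample that stood apart from the others by its gap, where 1.8 are expected by chance. AT5G14590, one of the genes most like ILA over the 12 values, had a normalized log2 value of -0.21 in WT 1, while the remaining WT values ran from 0.05 to 0.18. The values of ILA held no such sample in either group.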

How the results depend on the processing

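The spot was chosen for its fall in these same samples, so its sign here is no independent support. ILA stayed below 0 in 27 of 27 other settings, and 25 of them lay within 1 SD of the value of -1.30. The exceptions were the deposited scale, at -0.54, and numbers 1 and 2 taken alone, at -0.91. Fits that changed only the block, the averaging of neighbours, the spots tested or the eBayes trend gave -1.30 by construction. Their closeness to the main value therefore shows nothing about stability. With each sample left out in turn the range was -1.42 to -1.20 for ILA and 272 to 338 spots called, and the value without WT 2 was the -1.42. With the sample number as a replicate block the ILA difference was -1.30 with an SE of 0.15, against 0.20 without it, 0.26 with neighbouring numbers as a random block and 0.29 with neighbours averaged and no block, and the replicate block called 906 spots in place of 364. The number of spots called was 1396 on the deposited scale (1323 higher, 73 lower), 122 with neighbouring numbers as a random block, 191 without numbers 1 and 2, and 162 without 3 and 4. With neighbours averaged to 3 values a group and each set of neighbouring numbers as a block, limma called 348 spots (192 higher, 156 lower). The SE of ILA was 0.19 in that fit. With neighbours averaged and no block, limma called 0 spots, with 382 at an unadjusted p under 0.05. The averaged setting without a block and the sets taken alone were chosen after seeing the data. The cause of these changes was not tested. For the 9 other named genes followed through the alternatives, 0 stayed within 1 SD on the deposited scale and 205 of 207 values did so elsewhere. The fits that could not move the ILA difference could not move theirs either, so the 205 include values fixed in advance. The list genes gave 0 calls throughout, since none was tested.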
